A study of Homo sapiens with 4 samples.

Results

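The complement genes of hepatocytes were followed as 9 genes taken by gene symbol (C3, C5, C1R, C1S, CFB, CFI, C4BPA, C4BPB and C8G), all 9 of which were among the 24462 symbols counted. Complement is a set of plasma proteins, most of them made by hepatocytes, that mark microbes and damaged cells for removal. The classical and lectin pathways start with a recognition molecule and its serine proteases, the alternative pathway amplifies the deposit of C3 fragments, and the terminal pathway builds the membrane attack complex from C5 onward. In the liver these genes belong to the differentiated secretory program, and many of them are acute phase genes. HepG2, a human hepatocellular carcinoma cell line, was studied in 4 libraries. Each condition had 1 library, so no difference could be checked against replicates and no p-value is given. Cells were given the solvent DMSO, the CDK4/6 kinase inhibitor PD-0332991 (PD0332991), scrambled control siRNA (scrambled siRNA), or siRNA against CDK4 and CDK6 together (CDK4/6 KD), all in RPMI with serum. The dose, the exposure and the interval between transfection and harvest are not given in the sources used here. The controls differ in kind, DMSO being the solvent of the inhibitor and scrambled siRNA the transfection control of the knockdown.

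RNA was counted from its 3′ end (QuantSeq), with library totals from 8983848 to 11176880 reads and at least 10 reads for 12780 to 13257 genes per library. Levels are given as CPM, the reads of a gene scaled to a common library total after TMM correction. Intervals are exact 95% intervals on the split of reads between the libraries compared, cover counting error only and compare libraries, not conditions. CDK4 had 301 CPM in DMSO, 257 in PD0332991, 354 in scrambled siRNA and 71.9 under CDK4/6 KD, and CDK6 had 515, 479, 536 and 129 in the same order. All 12 hepatocyte markers were counted in every library, with summed levels from 19064 to 24872 CPM and APOB as the most counted. Of 13 macrophage and Kupffer cell markers, 9 had at most 3 reads in every library, among them PTPRC, CD163, CSF1R and the C1q chains. LYZ supplied 501 to 1022 of the summed 512 to 1037 CPM of the 13. CD68, CD14 and AIF1 were also counted, with 75 to 136, 4 to 29 and 4 to 30 reads per library. Of the 6 endothelial markers 4 had at most 3 reads in every library. The 8 fibroblast and stellate cell markers summed to 132 to 254 CPM, of which ACTA2 supplied 88.4 to 174.

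Start regions of members are shown for CFB, C4BPB, C5 and CFI, the genes on which the comparisons below turn most. CFB and C4BPB were the only members at least 1.5-fold higher in both inhibited libraries than in their own controls. C5 had the largest fold change in CDK4/6 KD among the well-counted members. The intervals of CFI lay on opposite sides of 1 in the knockdown and inhibitor comparisons. Each run holds 250 bases before and 50 bases from the RefSeq start site onward, read 5′ to 3′ on the gene's strand, and capitals mark every match to the motifs searched on both strands.
CFB (GRCh38.p14, chr6:31945845-31946144, plus strand): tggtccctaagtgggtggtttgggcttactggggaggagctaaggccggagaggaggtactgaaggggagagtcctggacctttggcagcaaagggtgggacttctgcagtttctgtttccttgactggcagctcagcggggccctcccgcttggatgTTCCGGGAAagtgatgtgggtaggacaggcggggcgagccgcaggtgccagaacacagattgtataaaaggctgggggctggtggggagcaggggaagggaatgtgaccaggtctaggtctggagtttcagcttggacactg
C4BPB (GRCh38.p14, chr1:207088610-207088909, plus strand): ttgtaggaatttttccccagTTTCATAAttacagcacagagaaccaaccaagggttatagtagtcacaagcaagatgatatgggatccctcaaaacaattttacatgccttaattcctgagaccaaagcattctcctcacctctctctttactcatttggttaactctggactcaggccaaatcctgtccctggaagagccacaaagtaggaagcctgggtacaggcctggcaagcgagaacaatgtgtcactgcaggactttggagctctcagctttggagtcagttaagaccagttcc
C5 (GRCh38.p14, chr9:121050226-121050525, minus strand): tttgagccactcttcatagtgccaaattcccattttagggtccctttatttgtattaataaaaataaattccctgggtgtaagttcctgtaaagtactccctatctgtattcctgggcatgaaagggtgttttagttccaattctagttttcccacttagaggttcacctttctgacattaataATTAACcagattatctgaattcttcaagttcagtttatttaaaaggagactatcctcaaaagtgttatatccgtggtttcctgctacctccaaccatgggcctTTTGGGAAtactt
CFI (GRCh38.p14, chr4:109801950-109802249, minus strand): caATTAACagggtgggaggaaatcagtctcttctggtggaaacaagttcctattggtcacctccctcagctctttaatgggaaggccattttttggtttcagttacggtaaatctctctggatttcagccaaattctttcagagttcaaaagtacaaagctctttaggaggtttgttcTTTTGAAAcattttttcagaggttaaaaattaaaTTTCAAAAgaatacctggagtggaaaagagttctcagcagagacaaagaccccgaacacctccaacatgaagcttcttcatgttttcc

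RefSeq start regions were at hand for 6 of the 9 members (CFB, C4BPB, C5, CFI, C1R and C4BPA), and C3, C1S and C8G are not shown. The motifs were TTCNNNGAA for STAT factors, TTNCNNAA for C/EBP factors, GGNNTTTCC for NF-kB and GTTAAT, part of the HNF1 site. These occur in 7.66%, 36.8%, 6.26% and 6.88% of 35116 start regions of the same length. CFB held TTCCGGGAA, a STAT motif, from base -92 relative to the start site, and it was the only member window of the 6 with that motif. The C/EBP motif occurred in 5 of the 6 windows, in C4BPB from base -230 and in CFI from bases -72 and -38. The HNF1 motif occurred in 3, which were C5 (from base -66), CFI (from base -248) and C4BPA (from base -50), and the NF-kB motif in none of the 6. A match describes the letters only. No 2 motif matches shared a base in these windows.

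Against scrambled siRNA, 8 of the 9 complement genes were higher in the CDK4/6 KD library with the whole interval above 1, and C8G was lower with the whole interval under 1. Across all 13617 genes tested, 30.0% were higher and 31.9% lower by that measure. C1R, C5 and CFB were at least 2-fold higher, as were 9.19% of all genes, and no member was at least 2-fold lower, against 7.62% of all genes. Over the 9 members the median was 0.91 on the log2 scale, beside 0.00 over all genes. At 1.5-fold, 7 members were higher and 1 was lower, against 19.4% and 17.4% of all genes. C4BPB, at 1.98, and C1S, at 1.89, lay just under 2-fold. The hepatocyte markers moved in the same comparison, 11 of 12 with the whole interval above 1 and 3 at least 2-fold higher, with a median of 0.43 on the log2 scale. Among them, and named after their values were seen, were FGB (a fibrinogen chain, 2.62-fold), APOH (2.21-fold) and albumin (ALB, 2.01-fold), while APOB was lower (0.868-fold). Whether the complement genes differed from hepatocyte genes as a whole was not tested. In bulk RNA, a change in the number of expressing cells and a change in RNA per cell cannot be told apart. The scrambled siRNA library was the lowest of the 4 for every member but C8G, within counting error of DMSO for C4BPA and C4BPB, so these fold changes depend on that library. Against DMSO the CDK4/6 KD fold changes had a median of 0.43 on the log2 scale and only CFB was at least 2-fold higher (fold change: 2.01, 95% interval 1.85 to 2.19). No median or share over all genes was computed for CDK4/6 KD relative to DMSO, so these values are not set against one.

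**Figure D1:**
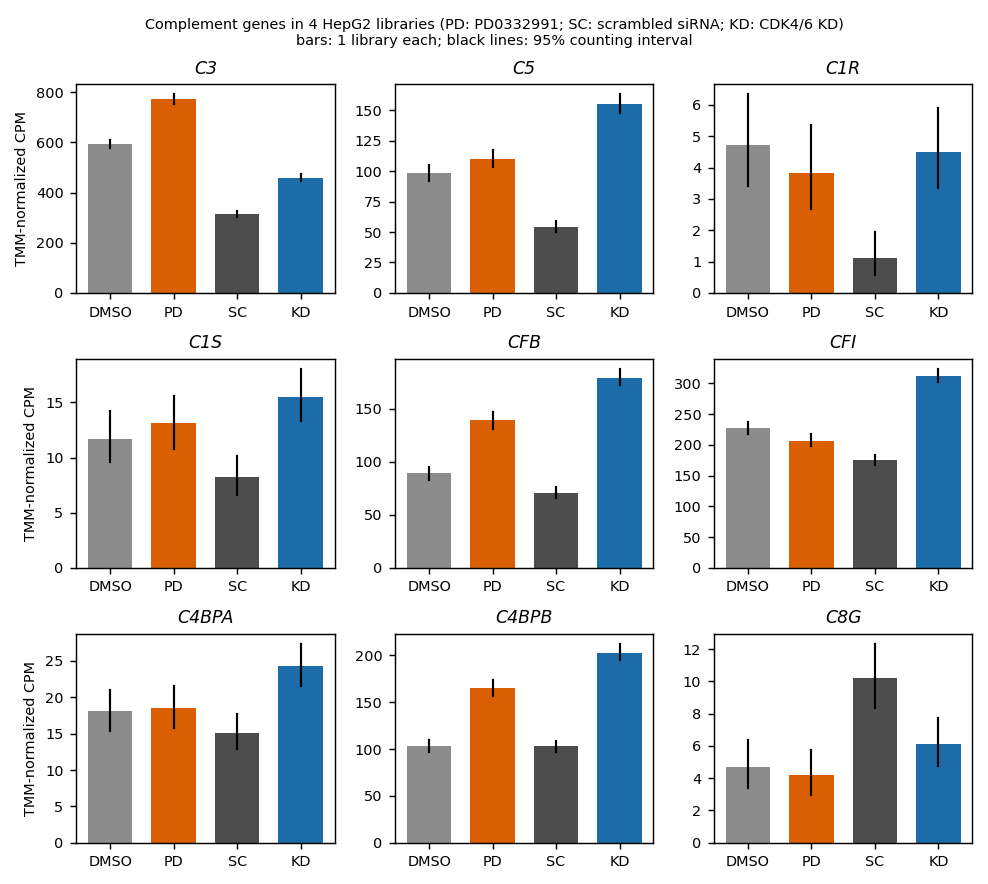
Bars give the TMM-normalized CPM of each complement gene in the DMSO, PD0332991 (PD), scrambled siRNA (SC) and CDK4/6 KD (KD) libraries, 1 library each, with a linear axis from 0 of its own for each gene, and black lines give the 95% counting interval. CDK4/6 KD is the highest bar for C5, C1S, CFB, CFI, C4BPA and C4BPB, PD0332991 is highest for C3 at 772 CPM, and scrambled siRNA is highest for C8G at 10.2 CPM.

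C3 encodes the central component on which all activation routes converge. It had 5437 reads in DMSO, 7032 in PD0332991, 3358 in scrambled siRNA and 5198 under CDK4/6 KD, that is 595, 772, 314 and 459 CPM. The order was PD0332991, DMSO, CDK4/6 KD and scrambled siRNA, and every neighbouring pair differed beyond counting error. C3 was 1.46-fold higher under CDK4/6 KD than in scrambled siRNA (95% interval 1.4 to 1.53) and 1.3-fold higher after PD0332991 than in DMSO (95% interval 1.25 to 1.34). The control libraries differed more, at 0.527 in scrambled siRNA relative to DMSO (95% interval 0.505 to 0.551). C3 in CDK4/6 KD was therefore under its DMSO level (fold change: 0.772, 95% interval 0.743 to 0.802).

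C5, whose cleavage starts the terminal pathway, had 896 reads in DMSO, 1002 in PD0332991, 580 in scrambled siRNA and 1756 under CDK4/6 KD, that is 98.1, 110, 54.2 and 155 CPM. CDK4/6 KD stood highest and scrambled siRNA lowest, and the neighbours PD0332991 and DMSO were the closest pair (fold change: 1.12, 95% interval 1.02 to 1.23). C5 was 2.86-fold higher under CDK4/6 KD than in scrambled siRNA (95% interval 2.6 to 3.15) and 1.58-fold higher than in DMSO (95% interval 1.46 to 1.72). C8G, which encodes the gamma chain of C8 in the membrane attack complex, was thinly counted. It had 43 reads in DMSO, 38 in PD0332991, 109 in scrambled siRNA and 69 under CDK4/6 KD, that is 4.71, 4.17, 10.2 and 6.1 CPM. Scrambled siRNA stood apart at the top, while CDK4/6 KD and DMSO, and DMSO and PD0332991, did not differ beyond counting error. C8G was lower under CDK4/6 KD relative to scrambled siRNA (fold change: 0.6, 95% interval 0.436 to 0.816), and its fold change against DMSO was 1.29 (95% interval 0.873 to 1.94).

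C1R and C1S encode the proteases that C1q carries and that start the classical pathway. C1R had 43 reads in DMSO, 35 in PD0332991, 12 in scrambled siRNA and 51 under CDK4/6 KD, that is 4.71, 3.84, 1.12 and 4.51 CPM. DMSO, CDK4/6 KD and PD0332991 did not differ beyond counting error from their neighbours, and scrambled siRNA was below all of them. The 3.89-fold higher level in CDK4/6 KD (95% interval 2.11 to 8.28) rested on those 12 reads, and against DMSO the fold change was 0.958 (95% interval 0.626 to 1.47). C1S had 107 reads in DMSO, 119 in PD0332991, 88 in scrambled siRNA and 176 under CDK4/6 KD, that is 11.7, 13.1, 8.22 and 15.5 CPM. It was 1.89-fold higher under CDK4/6 KD than in scrambled siRNA (95% interval 1.46 to 2.47) and 1.33-fold higher than in DMSO (95% interval 1.04 to 1.7). The levels in CDK4/6 KD, PD0332991 and DMSO did not differ between neighbours beyond counting error.

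CFB encodes factor B, the protease subunit of the alternative pathway convertase. It had 814 reads in DMSO, 1264 in PD0332991, 754 in scrambled siRNA and 2029 under CDK4/6 KD, that is 89.1, 139, 70.5 and 179 CPM. Both inhibited libraries were above both controls, and each neighbouring pair differed beyond counting error. CFB was 2.54-fold higher under CDK4/6 KD than in scrambled siRNA (95% interval 2.34 to 2.77), and 1.56-fold higher after PD0332991 than in DMSO (95% interval 1.43 to 1.7). The controls differed less, with a fold change of 0.791 in scrambled siRNA relative to DMSO (95% interval 0.715 to 0.874). The deposited tables list CFB 7 times, and all of its reads were in 1 of these entries. In GENCODE 29 the last 500 bases of CFB overlap a gene on the same strand, AL645922.1, and those of CFI overlap AC126283.2. Reads could be split between the genes of each pair where a counter lists both.

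CFI encodes factor I, the protease that inactivates C3b and C4b. It had 2076 reads in DMSO, 1885 in PD0332991, 1870 in scrambled siRNA and 3535 under CDK4/6 KD, that is 227, 207, 175 and 312 CPM. CDK4/6 KD stood above the other libraries, and PD0332991 lay between the controls. CFI was 1.79-fold higher under CDK4/6 KD than in scrambled siRNA (95% interval 1.69 to 1.89) and 1.37-fold higher than in DMSO (95% interval 1.3 to 1.45), whereas after PD0332991 it was slightly lower than in DMSO (fold change: 0.911, 95% interval 0.856 to 0.97).

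C4BPA and C4BPB encode the alpha and beta chains of C4b-binding protein, a cofactor of factor I, and lie next to each other on chromosome 1. C4BPB had 944 reads in DMSO, 1506 in PD0332991, 1100 in scrambled siRNA and 2301 under CDK4/6 KD, that is 103, 165, 103 and 203 CPM. The controls had the same level within counting error (0.995-fold in scrambled siRNA, 95% interval 0.911 to 1.09), and both inhibited libraries were above them. C4BPB was 1.98-fold higher under CDK4/6 KD (95% interval 1.84 to 2.13) and 1.6-fold higher under PD0332991 (95% interval 1.47 to 1.74). C4BPA had 165 reads in DMSO, 168 in PD0332991, 162 in scrambled siRNA and 275 under CDK4/6 KD, that is 18.1, 18.5, 15.1 and 24.3 CPM. Its fold change was 1.6 under CDK4/6 KD (95% interval 1.32 to 1.96), and 1.02 after PD0332991 (95% interval 0.819 to 1.27). The intervals of the 2 chains did not overlap after PD0332991 and overlapped in CDK4/6 KD. The levels of C4BPA in PD0332991, DMSO and scrambled siRNA did not differ between neighbours beyond counting error.

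**Figure D2:**
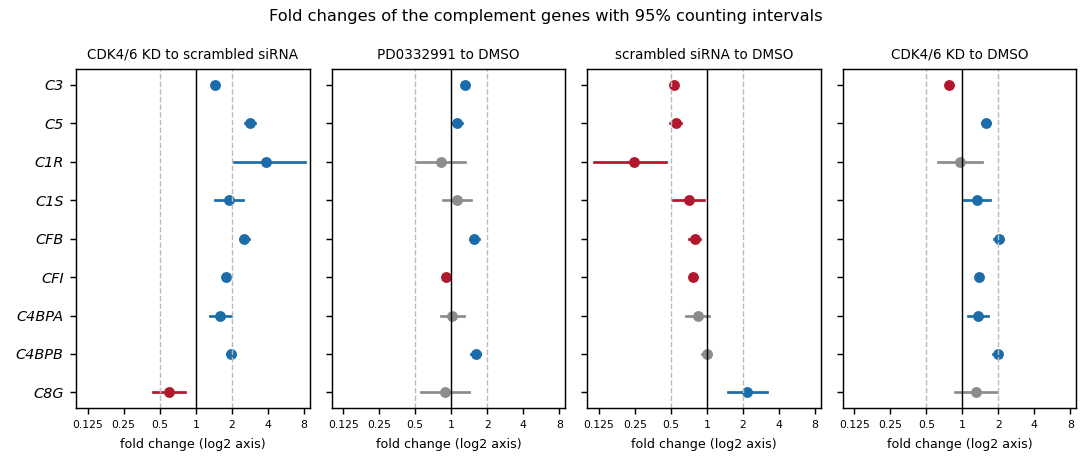
Points give the fold change of each complement gene on a log2 axis in 4 comparisons of libraries and lines give 95% counting intervals, in blue where the interval lies above 1, red where it lies under 1 and grey where it includes 1, with dashed lines at 2-fold. CFB and C4BPB lie to the right of 1 in the knockdown and inhibitor comparisons and in CDK4/6 KD relative to DMSO, while C3 lies to the right of 1 against scrambled siRNA (1.46) and to the left against DMSO (0.772).

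After PD0332991, no member was at least 2-fold higher or lower than in DMSO, beside 7.49% and 7.07% of the 13443 genes tested. The whole interval lay above 1 for C3, C5, CFB and C4BPB (4 of 9, against 28.1% of all genes) and under 1 for CFI (28.6% of all genes). CFB and C4BPB were at least 1.5-fold higher, as were 16.8% of all genes, and 0 members were lower by as much (15.1%). Of the hepatocyte markers, 9 of 12 had the whole interval above 1 and 3 under 1, with a median of 0.39 on the log2 scale. Those 3 were AFP (0.687-fold), APOH (0.807-fold) and ALB (0.919-fold). All 3 were higher in the knockdown comparison, AFP only slightly (fold change: 1.05, interval 1.01 to 1.08). Over the 9 members the median was 0.16 on the log2 scale, beside 0.02 over all genes. The same 4 genes, C3, C5, CFB and C4BPB, had intervals above 1 in the knockdown comparison as well, and 11.8% of the 13099 genes tested in both did. The intervals of C1R, C1S, C4BPA and C8G included 1, with fold changes of 0.819, 1.12, 1.02 and 0.888. For C1R and C8G, with 35 to 43 reads per library, differences inside their intervals (0.507 to 1.31 and 0.558 to 1.4) were not detectable at this depth.

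Between the control libraries, C3, C5, C1R, C1S, CFB and CFI had lower levels in scrambled siRNA than in DMSO, with the whole interval under 1, 6 of 9 members against 28.0% of the 13303 genes tested, and C8G was higher with the whole interval above 1, as were 28.3%. C1R was at least 2-fold lower (fold change: 0.246, 95% interval 0.114 to 0.46), as were 6.64% of all genes, and C8G at least 2-fold higher (fold change: 2.15, 95% interval 1.51 to 3.16), as were 5.30%. At 1.5-fold, 3 members were lower (15.7% of all genes) and 1 was higher (13.4%). Over the 9 members the median was -0.38 on the log2 scale, beside 0.01 over all genes. Of the hepatocyte markers, 6 of 12 had the whole interval above 1 and 5 under 1 (28.3% and 28.0% of all genes). Their median was 0.06 on the log2 scale. Fibroblast and stellate cell markers differed between the same libraries, 4 of the 6 with at least 10 reads being at least 2-fold lower in scrambled siRNA (median of -2.28 on the log2 scale). COL1A1, a collagen chain named after its values were seen, had 332 reads in DMSO, 468 in PD0332991, 73 in scrambled siRNA and 207 under CDK4/6 KD. Its fold change was 0.189 in scrambled siRNA relative to DMSO (95% interval 0.144 to 0.243), 2.67 in CDK4/6 KD relative to scrambled siRNA (95% interval 2.04 to 3.55) and 1.41 after PD0332991 (95% interval 1.23 to 1.63), so that scrambled siRNA was its lowest library, as for 8 of the 9 members. COL1A2 had a fold change of 0.225 between the controls, while COL3A1 (30 reads in DMSO and 1 in scrambled siRNA) and PDGFRB (11 and 1) had ratios of 0.0285 (interval 0.000698 to 0.171) and 0.0776 (interval 0.0018 to 0.534). ACTA2 was 1.36-fold higher, and RGS5, with 24 reads in DMSO and 37 in scrambled siRNA, had a fold change of 1.31 (95% interval 0.767 to 2.3). In CDK4/6 KD relative to scrambled siRNA, ACTA2 and RGS5 had fold changes of 1.05 and 0.619, both with intervals that included 1. Among the 7 fibroblast and stellate cell markers tested after PD0332991, 5 had the whole interval above 1 (28.1% of all genes), with a median of 0.97 on the log2 scale. The part of these cell type markers in the results was not tested. The comparison of the controls shares the scrambled siRNA library with the knockdown comparison and the DMSO library with the inhibitor comparison. Transfection and solvent treatment cannot be told apart from other differences between these libraries.

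**Figure D3:**
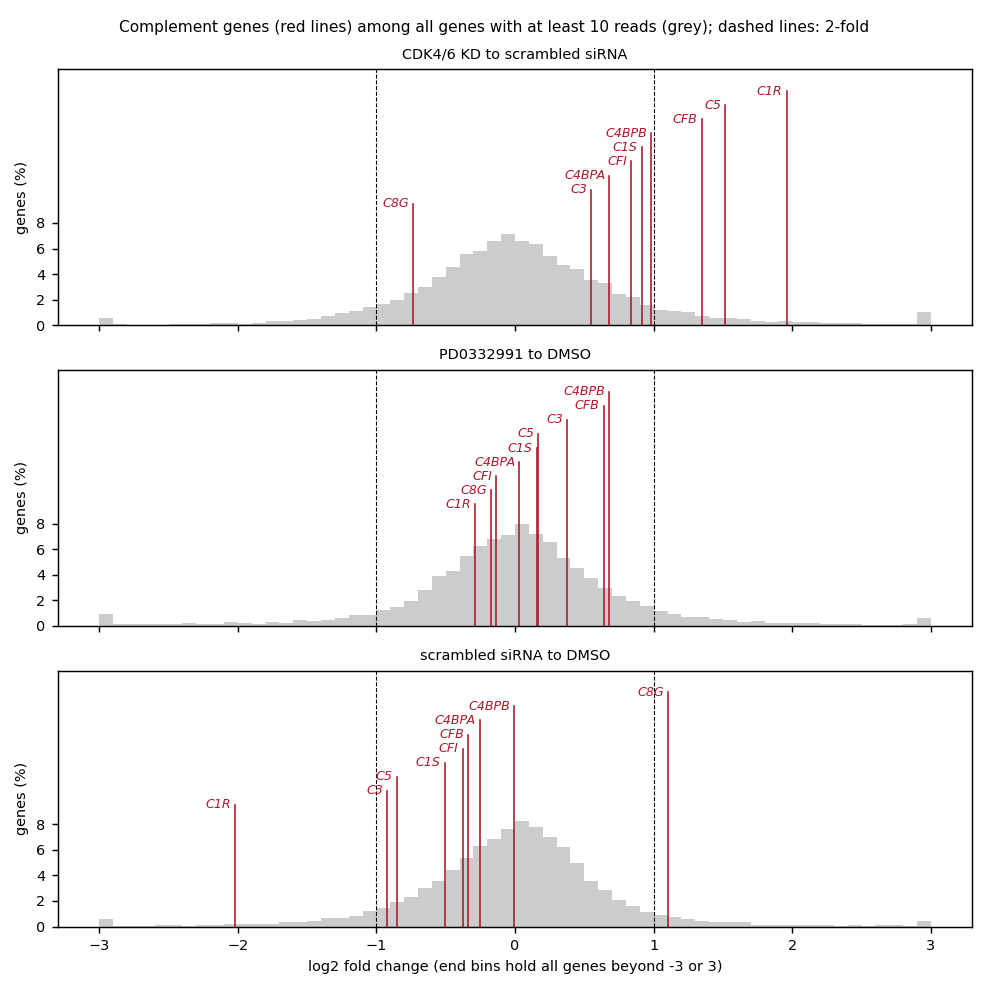
Grey bars give the share of all genes with at least 10 reads (in percent) in bins of log2 fold change for the knockdown, inhibitor and control comparisons, with genes beyond the axis in the end bins, and red lines mark the 9 complement genes. In CDK4/6 KD 8 of the 9 lines lie to the right of 0 and C8G to the left, after PD0332991 all 9 lie between the dashed 2-fold lines, and between the controls C1R lies left of the lower line and C8G right of the upper line.

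Other complement genes were followed with a list of 45, of which 20 had at least 10 reads in each of the comparisons. In CDK4/6 KD 8 were higher by 2-fold or more and 2 were lower by as much (9.19% and 7.62% of all genes), and the median was 0.74 on the log2 scale. After PD0332991, 2 were higher by 2-fold or more and 0 were lower by as much (7.49% and 7.07% of all genes), with a median of 0.36, and between the controls 1 was higher and 3 were lower (5.30% and 6.64% of all genes), with a median of 0.09. C1QA, C1QB and C1QC, the chains of C1q made mainly by macrophages, had 0 reads in all 4 libraries, which allows levels of up to 0.265 to 0.329 CPM (3 reads, the one-sided 95% limit of a count of 0).

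Among the classical and lectin pathway genes, C2, the neighbour of CFB and the protease of the classical convertase, had 109 CPM in DMSO, 175 in PD0332991, 104 in scrambled siRNA and 169 under CDK4/6 KD. Like CFB it was above both controls in both inhibited libraries, 1.62-fold higher under CDK4/6 KD (95% interval 1.51 to 1.75) and 1.6-fold higher under PD0332991 (95% interval 1.48 to 1.73). C4A, which encodes a form of C4, was 2.13-fold higher in CDK4/6 KD and 1.33-fold higher after PD0332991, and C4B, named after its values were seen, 1.97-fold and 1.4-fold. C4A and C4B are near-identical copies, so the split of reads between them is uncertain. MASP2, a protease of the lectin pathway, was 2.33-fold higher in CDK4/6 KD (95% interval 1.65 to 3.38) and 1.86-fold higher after PD0332991 (95% interval 1.31 to 2.69). COLEC11, a collectin that recognises sugars, was 2.18-fold higher in CDK4/6 KD (95% interval 1.42 to 3.51). MBL2, the mannose-binding lectin, was lower there, with 69 reads in scrambled siRNA and 19 under CDK4/6 KD (fold change: 0.266, 95% interval 0.148 to 0.438).

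In the terminal pathway, the 3 chains of C8 differed in the order of the libraries. C8A had 49 reads in DMSO, 99 in PD0332991, 109 in scrambled siRNA and 97 under CDK4/6 KD, with a fold change of 2.02 after PD0332991 (95% interval 1.43 to 2.92). C8B had 39, 41, 3 and 22 reads in the same order, a ratio of 6.93 in CDK4/6 KD to scrambled siRNA with a counting interval of 2.08 to 36.2 and of 0.0657 in scrambled siRNA to DMSO (interval 0.013 to 0.207). Scrambled siRNA was thus the lowest library for C8B and the highest for C8G. C6, which binds C5b, had 2 reads in DMSO, 13 in PD0332991, 23 in scrambled siRNA and 24 under CDK4/6 KD, a ratio of 6.52 after PD0332991 (interval 1.48 to 59.5) and of 9.82 in scrambled siRNA to DMSO (interval 2.43 to 85.9).

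All 5 soluble regulators that passed the filter were higher under CDK4/6 KD than in scrambled siRNA with the whole interval above 1, as were 30.0% of all genes. SERPING1, the C1 inhibitor that blocks C1r and C1s, had 26 reads in DMSO, 28 in PD0332991, 6 in scrambled siRNA and 36 under CDK4/6 KD, and its 5.29-fold higher level (95% interval 2.37 to 16.5) rested on those 6 reads. Vitronectin (VTN), which binds the forming membrane attack complex, was 2.51-fold higher in CDK4/6 KD (95% interval 2.18 to 2.91) and 1.41-fold higher after PD0332991 (95% interval 1.17 to 1.7). CPN1, the catalytic chain of the carboxypeptidase that trims C3a and C5a, was 2.09-fold higher in CDK4/6 KD (95% interval 1.74 to 2.52) and had a fold change of 0.919 after PD0332991 (95% interval 0.702 to 1.2). Clusterin (CLU), the most counted of the list, was 1.65-fold higher in CDK4/6 KD and 1.21-fold higher after PD0332991.

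Of the membrane-anchored regulators, CD46, a membrane cofactor of factor I, had 70.2 CPM in DMSO, 74.2 in PD0332991, 80.1 in scrambled siRNA and 29.9 under CDK4/6 KD (fold change: 0.373, 95% interval 0.328 to 0.423), so that CDK4/6 KD stood below the other 3 libraries. CD59, which blocks C9 insertion and was the most counted of these, had a fold change of 0.975 in CDK4/6 KD (95% interval 0.908 to 1.05) and of 1.2 after PD0332991 (95% interval 1.12 to 1.29). ITGB2, the beta chain shared by the leukocyte integrins that include complement receptors, was the only receptor gene of 9 with at least 10 reads, with 27.9 CPM in DMSO, 54.1 in PD0332991, 34.4 in scrambled siRNA and 93.5 under CDK4/6 KD (fold changes of 2.72 and 1.94). Its partner chains ITGAM and ITGAX had at most 3 reads per library. In the alternative pathway, CFD, the protease that cleaves factor B, had a fold change of 1.21 in CDK4/6 KD (95% interval 0.892 to 1.65) and of 0.499 in scrambled siRNA relative to DMSO (95% interval 0.371 to 0.662).

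**Figure D4:**
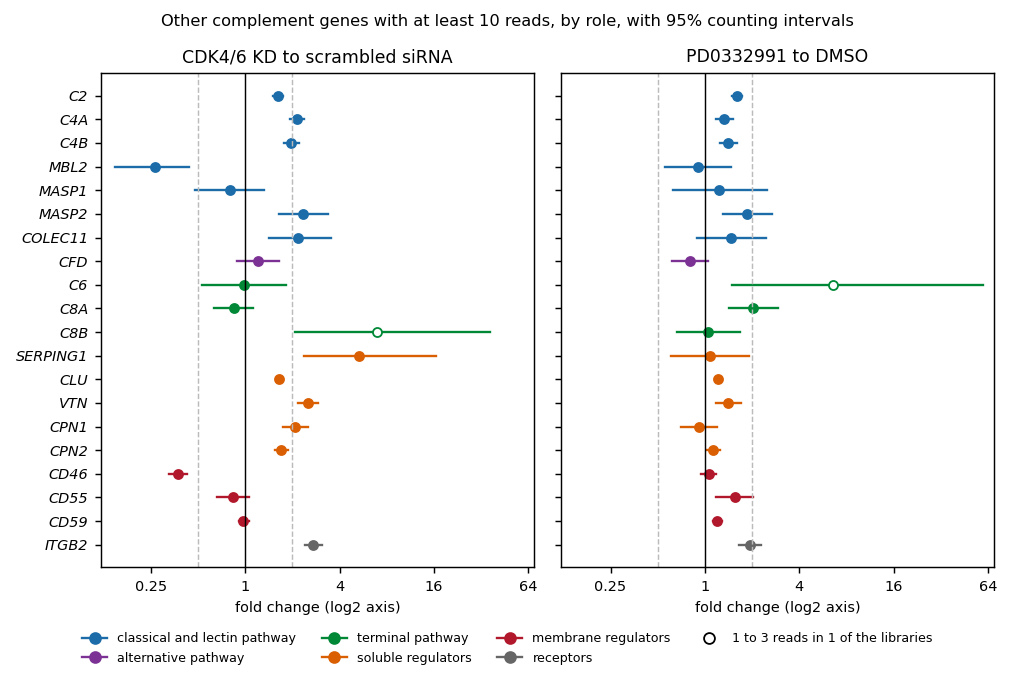
Points give the fold change of the 20 other complement genes with at least 10 reads on a log2 axis in CDK4/6 KD relative to scrambled siRNA (left) and PD0332991 relative to DMSO (right), coloured by role, with 95% counting intervals, dashed lines at 2-fold and open points where 1 of the libraries had 1 to 3 reads. The soluble regulators lie to the right of 1 in CDK4/6 KD (1.65 to 5.29), where CD46 (0.373) and MBL2 (0.266) lie left of the lower dashed line.

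Of 11 transcription factor genes of acute phase and liver genes, all tested, 2 were at least 2-fold higher under CDK4/6 KD than in scrambled siRNA (9.19% of all genes). The whole interval lay above 1 for 6 and under 1 for 4 of them, against 30.0% and 31.9% of all genes. Their median was 0.13 on the log2 scale, beside 0.00 over all genes. CEBPB, a C/EBP factor of the acute phase response, had 89 CPM in DMSO, 115 in PD0332991, 67.1 in scrambled siRNA and 137 under CDK4/6 KD. Its fold change was 2.04 under CDK4/6 KD (95% interval 1.87 to 2.23) and 1.29 after PD0332991 (95% interval 1.18 to 1.42). NR1H4, the bile acid receptor FXR, had 28.1, 30.4, 7.38 and 29.8 CPM in the same order, and was 4.01-fold higher in CDK4/6 KD relative to scrambled siRNA (95% interval 3.15 to 5.22), which was the lowest library. CEBPA had 160, 129, 39.1 and 62.9 CPM, 1.61-fold higher in CDK4/6 KD (95% interval 1.43 to 1.82) and 0.244 times its DMSO level in scrambled siRNA (95% interval 0.218 to 0.272). HNF4A, a hepatocyte identity factor and the most counted of the list, had a fold change of 1.09 under CDK4/6 KD (95% interval 1.02 to 1.17), and one of 1.36 under PD0332991 (95% interval 1.27 to 1.46). STAT3 and NFKB1, named after their values were seen, had fold changes of 1.63 and 0.633 in CDK4/6 KD and of 1.18 and 0.612 after PD0332991. Whether these factors had a part in the levels of the complement genes was not tested.

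Genes outside complement with the pattern most like that of C3 over the 4 libraries were VSIG10, PTPRU, C11orf54, ZDHHC23 and GREB1. Likeness was the root mean square difference of centred log2 CPM, which was 0.037 for VSIG10 and 0.051 for GREB1, with a median of 0.557 over 10665 genes compared. VSIG10 had 17.5 CPM in DMSO, 22.8 in PD0332991, 8.69 in scrambled siRNA and 13.5 under CDK4/6 KD. The genes most like the median of the 9 members were TMEM63B, SIRPA, PGRMC2, ARID5A and ETNK2, at 0.028 to 0.044, with a median of 0.45. With 4 values per gene, many genes have similar patterns.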

How the data were processed

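Total RNA of HepG2 cells was sequenced in QuantSeq 3′ mRNA libraries (NextSeq 500, single-end), 4 libraries with 1 library per condition. What the authors deposited are raw counts of reads for each gene symbol, without normalization. The submitters' processing notes name Bowtie2, edgeR and the build hg19, with no role or version. The counter, the annotation and the strand setting are not given in the sources used here.

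Groups came from the sample labels. Entries were summed for the 286 symbols that appear repeatedly. Library sizes were corrected with TMM (edgeR 4.0.16, R 4.3.3; factors 0.957 to 1.03). For fold changes, 0.5 reads (scaled by library size) were added to each count, and a gene needed 10 or more reads in 1 of the libraries compared. Where a library had 1 to 3 reads the ratio of reads was given without pseudocount. Intervals are 95% Clopper-Pearson intervals on the split of reads and exact Poisson intervals on levels (scipy 1.17.1), and take no account of PCR copies. Without replicates the quasi-likelihood test of edgeR was not run. The procedure was tested on simulated Poisson counts, which hold counting error and no other variation between libraries, so the test does not cover such variation. The members and all lists were chosen with earlier results of these data known. Named were all members, the targeted genes, of the other complement genes and the transcription factors each gene past 2-fold and the most counted of each list, and the 5 genes most alike (mean of at least 50 reads). Start regions are from RefSeq (GRCh38.p14), and where several were listed, the one nearest the GENCODE 29 gene start was taken. The builds differ from that of the counts, so no positions are given except those of the RefSeq start regions. Alternatives were DESeq2 1.42.0 size factors, total counts, quantile normalization (limma 3.58.1), a pseudocount of 5 reads, the other arm's control, the top entry alone of each repeated symbol, no filter, a filter of 50 reads, and thresholds of 1.5-fold or the whole interval past 2-fold.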

Additional observations from a re-analysis of the deposited data

Results flagged for a closer look

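CFI had intervals on opposite sides of 1 in the knockdown and the inhibitor comparison, with fold changes of 1.79 in CDK4/6 KD relative to scrambled siRNA and 0.911 in PD0332991 relative to DMSO. CEBPA did so too, with fold changes of 1.61 and 0.804. With 1 library per condition the difference between the comparisons was not tested, and both genes had lower levels in the scrambled siRNA library than in the DMSO library (0.769-fold and 0.244-fold).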

How the results depend on the processing

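No paired analysis was possible because each condition has 1 library. Outside the exchange of controls, 180 of 186 recomputed fold changes of the 9 genes stayed within their counting interval, and 0 of those whose interval left out 1 changed direction. With total counts alone, which moved the median of all genes by 0.10 on the log2 scale in the knockdown comparison, 5 of the 9 genes were at least 2-fold higher in CDK4/6 KD instead of 3. Shares of all genes were not computed for the other scalings, filters and pseudocount or with exchanged controls. Counts under those settings therefore stand without a share beside them.

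With the other arm's control, the median over the 9 genes (log2 scale) moved to 0.43 in CDK4/6 KD and 0.69 after PD0332991, with 1 gene at least 2-fold higher in CDK4/6 KD, and 3 higher and 1 lower after PD0332991. Of the members and other named genes with more than 3 reads, fold changes crossed 1 for C3 (0.772), C1R (0.958), C8G (1.29), CFD (0.604), C8A (1.59) and CEBPA (0.392) in CDK4/6 KD, and for C1R (3.32), CFI (1.18), CFD (1.61), CLU (0.909), CD46 (0.927) and CEBPA (3.3) after PD0332991. With the own control, the intervals of CFD and C8A in CDK4/6 KD and of C1R, CFD and CD46 after PD0332991 had included 1. Other complement genes at least 2-fold higher after PD0332991 numbered 4.

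At 1.5-fold, the members higher numbered 7 and those lower 1 for CDK4/6 KD (19.4% and 17.4% of all genes), 2 higher after PD0332991 (16.8%), and 3 lower between the controls (15.7%). Other complement genes numbered 6 higher after PD0332991 (16.8% of all genes) and 5 higher between the controls (13.4%). With the whole interval past 2-fold, other complement genes numbered 4 higher in CDK4/6 KD (454 of all 13617 genes) and 0 after PD0332991 (226 of 13443). By that measure no member (0) was higher between the controls (165 of 13303 genes). With a filter of 50 reads, which dropped C1R and C8G after PD0332991 and C1R between the controls, 0 members were lower between the controls, and other complement genes numbered 1 higher after PD0332991, and 0 higher and 1 lower between the controls. Without a filter they numbered 8 higher after PD0332991 and 5 lower between the controls, and with a pseudocount of 5 reads 1 was higher after PD0332991.

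Intervals cover counting error only, which is wide for C1R and C8G.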
